A study of Mus musculus with 8 samples.

Results

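Epithelial genes of the mesenchymal-epithelial transition were examined for peaks of 4 reprogramming factors in mouse embryonic fibroblasts (MEFs). The 10 genes are Cdh1, Epcam, Ocln, Cldn3, Cldn4, Cldn7, Esrp1, Krt8, Krt18 and Grhl2, of 21938 protein-coding genes in the annotation. They were chosen as epithelial genes and not by their peaks, though with earlier results of these data known. A peak was assigned to a gene when its summit, the position of highest tag density, lay in the gene body or within 50 kb of the gene's first annotated start site. This span is called the gene's window below. All 10 genes were found in the annotation, and each had a summit in its window in at least 7 of 8 libraries. The union of the windows covered 971.5 kb in 8 separate segments, since the windows of Krt8 and Krt18, and those of Cldn3 and Cldn4, overlap.

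Fibroblasts are mesenchymal cells, which move singly and lack the junctions that hold an epithelial sheet together. Pluripotent cells grow as epithelial-like colonies, and a mesenchymal-epithelial transition is an early step when fibroblasts are reprogrammed. Adherens junctions are built on E-cadherin, tight junctions on occludin and claudins, and the cytoskeleton of simple epithelia on paired keratins. Transcription factors and splicing regulators specific to epithelia maintain this state, while factors such as Snai1, Zeb1 and Twist1 hold the mesenchymal state.

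The data were CUT&Tag libraries, in which an antibody tethers the Tn5 transposase to chromatin so that DNA near the target is cut, tagged and sequenced. The antibody was against Flag, the tag on the delivered factor, and the cells were collected at day 3 of reprogramming. Each of Nanog, Oct4, Sox2 and Nr5a2 was studied in its native form and as a BiD fusion, giving 8 groups (Nanog, NanogBiD, Oct4, Oct4BiD, Sox2, Sox2BiD, Nr5a2 and Nr5a2BiD) with 1 library each. BiD is a domain of SS18 through which that protein contacts BRG1, the catalytic subunit of BAF chromatin remodellers, and it was joined by a linker to the N-terminus of the factor. All groups share the host cells, MEFs of midgestation embryos that carry the OG2 Oct4-GFP reporter allele, and retroviral delivery. The library titles name 1 factor each and do not say which other factors the same cells received. The study states that the assay was performed once without biological replicates, so the values below have no replicate error and no test was made between libraries. No control library is named, and a library of the same cells without a Flag-tagged factor was not analysed here, so transposition into accessible chromatin cannot be told apart from binding. The lists held between 54794 peaks, in native Oct4, and 120594 peaks, in Sox2BiD. The study's reporting summary lists read totals, which were not used here, and the lowest summit height in a list ranged from 6 to 10 tags. Heights in tags are not scaled to depth, so more tags in one library than in another need not mean a stronger peak. Expression was not measured in these libraries, and a peak says nothing about whether its nearest gene was transcribed. Of 10 mesenchymal genes, 8 had a summit within 2 kb of their first start in at least 5 libraries, among them Vim, Fn1, Twist1 and Snai2 in all 8. So did 0 of the 10 epithelial genes, 5 of 32 other epithelial genes and 40.8% of all genes. Above the median of CpG content described below were 7 of 10 mesenchymal genes, 22 of 32 other epithelial genes and 4 of 10 members. A peak does not show the cell type.

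Summits were found near nearly all of the epithelial genes in every library, as they were near most genes. A window held at least 1 summit for 10 of 10 members in native Nanog, NanogBiD, native Oct4, Oct4BiD, Sox2BiD, native Nr5a2 and Nr5a2BiD, and for 7 of 10 in native Sox2. Among all protein-coding genes, windows of the same kind held a summit for 84.0% of genes in native Nanog against 83.6% in NanogBiD, for 82.1% in native Oct4 against 86.5% in Oct4BiD, for 77.5% in native Sox2 against 88.7% in Sox2BiD, and for 87.5% in native Nr5a2 against 86.0% in Nr5a2BiD. The members' counts were thus near the share of all genes. Counted once where windows overlap, the windows held 43 summits in native Nanog, 52 in NanogBiD, 24 in native Oct4, 51 in Oct4BiD, 18 in native Sox2, 71 in Sox2BiD, 80 in native Nr5a2 and 55 in Nr5a2BiD. Native Nr5a2 had the highest number and native Sox2 the lowest. Scaled to 10000 peaks of each list, the range narrowed to between 3.09 summits in native Sox2 and 7.41 in native Nr5a2, with 7.22 in Nr5a2BiD and between 4.38 and 6.86 in the other 5 libraries. The median member had 6 summits in native Nanog against 4 for the median gene, 8 against 4 in NanogBiD, 2.5 against 3 in native Oct4, 6 against 5 in Oct4BiD, 2 against 2 in native Sox2, 8.5 against 6 in Sox2BiD, 9.5 against 8 in native Nr5a2 and 6.5 against 5 in Nr5a2BiD. The member median was thus above that of all genes in 6 libraries, equal to it in native Sox2 and below it in native Oct4. In these medians a summit in overlapping windows counts for each gene, and summits at starts of neighbouring genes are included.

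**Figure D1:**
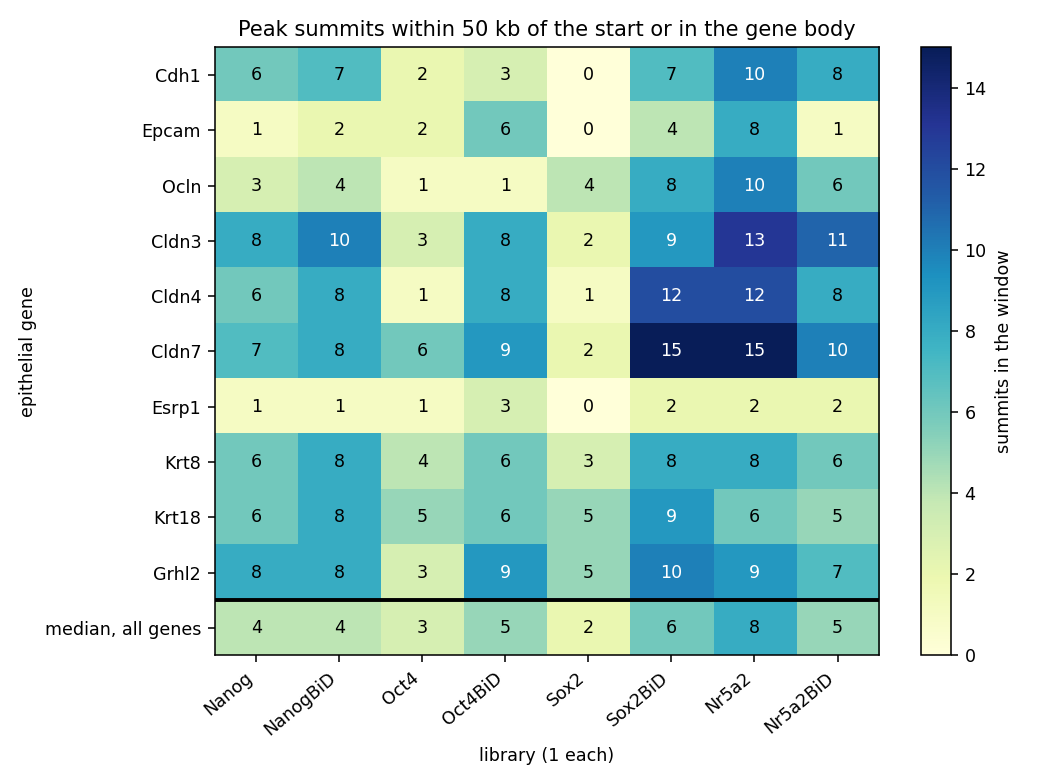
Number of peak summits in the window of each epithelial gene (rows) in each library (columns, 1 library each), with the median over all protein-coding genes in the bottom row; darker cells hold more summits. Cldn7 reaches 15 summits in Sox2BiD and in native Nr5a2, Esrp1 never exceeds 3, and the native Sox2 column holds 0 for Cdh1, Epcam and Esrp1.

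The sequence within 50 bp of each summit was searched on both strands for ATGCAAAT (the octamer bound by Oct4), CCATTGTT (SOX factors), CAAGGTCA or CAAGGCCA (NR5A factors), GCCATTA (NANOG), TGACTCA (AP-1, which also matches TGAGTCA on the other strand), CATTCCA or CATTCCT (TEAD) and AACCGGTT (grainyhead factors). A factor's own letters were present at 29 member summits. With Nanog they were at 2 of 43 summits of the native library (4.65%, where all its peaks gave 1.70%) and at 2 of 52 of the BiD library (3.85%, where all gave 2.55%). With Oct4 they were at 1 of 24 (4.17%, where all gave 4.17%) and at 4 of 51 (7.84%, where all gave 9.72%). With Sox2 they were at 0 of 18 (exact 95% interval up to 18.5%, where all gave 1.90%) and at 2 of 71 (2.82%, where all gave 3.29%). With Nr5a2 they were at 12 of 80 (15%, where all gave 16.3%) and at 6 of 55 (10.9%, where all gave 12.7%). For every library the share of all peaks lay inside the exact 95% interval of the members' share. The grainyhead letters were at 0 member summits in every library and at no more than 0.0304% of all peaks. The match is of fixed letters in a short window, and its absence says only that these letters were not there.

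Sequences are given for 7 summits, each from GRCm38.p6 (mm10) on the plus strand. Overlapping peaks of the 8 libraries were merged into regions, and a library is said to hold a region in which it has a peak. The first 2 were chosen by rule, as the region with the highest mean height rank over both forms of a factor that carries the factor's letters. No region met this rule for Oct4 or Sox2, among 18 regions held by both forms for each. The others were chosen after the values were seen. The next 3 show the best-scoring summit with the SOX letters and matches inside Esrp1 and Cdh1. The last 2 are the summits of the highest-scoring member peak of all and of the distal region with peaks in all 8 libraries. Capitals mark the letters searched for the factor named, on either strand, and in the last 2, where all the motifs were searched, there was no match.
NANOG letters at the Abhd11 promoter in the Cldn3 window, chr5:135008876-135008976, NanogBiD summit: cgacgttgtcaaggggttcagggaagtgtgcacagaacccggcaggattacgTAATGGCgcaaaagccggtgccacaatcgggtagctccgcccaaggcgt
NR5A letters 27.7 kb downstream of Krt8, chr15:101976693-101976793, native Nr5a2 summit: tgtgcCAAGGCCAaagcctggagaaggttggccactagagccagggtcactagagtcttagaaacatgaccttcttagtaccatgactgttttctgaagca
SOX letters in a Dvl2 intron 42.5 kb downstream of Cldn7, chr11:70007224-70007324, Sox2BiD summit: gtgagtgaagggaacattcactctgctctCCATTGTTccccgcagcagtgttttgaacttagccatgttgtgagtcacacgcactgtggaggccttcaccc
NR5A letters in an Esrp1 intron 43.7 kb downstream, chr4:11343081-11343181, native Nr5a2 summit: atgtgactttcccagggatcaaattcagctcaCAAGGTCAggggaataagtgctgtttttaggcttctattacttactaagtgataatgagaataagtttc
NR5A letters in a Cdh1 intron 41.3 kb downstream, chr8:106644628-106644728, Nr5a2BiD summit: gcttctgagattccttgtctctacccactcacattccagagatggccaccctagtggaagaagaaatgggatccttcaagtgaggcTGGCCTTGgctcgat
Sox2BiD summit 20.1 kb downstream of Krt8, chr15:101984285-101984385: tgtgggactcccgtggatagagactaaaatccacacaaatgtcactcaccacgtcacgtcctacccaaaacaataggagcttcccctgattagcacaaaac
Nr5a2BiD summit 30.9 kb upstream of Grhl2, chr15:37202105-37202205: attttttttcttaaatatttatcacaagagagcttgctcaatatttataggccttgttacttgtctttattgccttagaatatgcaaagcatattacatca

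At the first of these, the Abhd11 promoter, peaks of all 8 libraries coincided, and the NANOG letters lay at the highest-scoring member peak of both Nanog libraries. The region downstream of Krt8 with the NR5A letters was the member region of greatest mean height rank in the Nr5a2 libraries, at percentile 99.0 of heights in native Nr5a2 and percentile 98.2 in Nr5a2BiD. The SOX letters in Dvl2 lay 294 bp downstream of an annotated Dvl2 start, in a region held by Sox2BiD alone, with 35 tags and at percentile 72.1 of scores. In Esrp1 and Cdh1 the NR5A letters lay in regions that both Nr5a2 libraries held and no other library did.

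Cdh1 encodes E-cadherin, the adhesion molecule of the adherens junction, and its loss marks the mesenchymal state. Its window (ENSMUSG00000000303.12, gene at chr8:106603351-106670246, plus strand) held 6 summits in native Nanog against 7 in NanogBiD, 2 in native Oct4 against 3 in Oct4BiD, 0 in native Sox2 against 7 in Sox2BiD, and 10 in native Nr5a2 against 8 in Nr5a2BiD. None lay within 2 kb of the first start in any library. A later annotated start of Cdh1 had a summit 1459 bp downstream in native Nr5a2, with 32 tags at percentile 81.3 of scores. In Nr5a2BiD a summit lay 1539 bp downstream of it, with 12 tags at percentile 4.15. Of the 43 summits, 29 lay inside the gene and 40 were distal, meaning over 2 kb from every annotated protein-coding start. Few regions were common to several factors, as over the genome. There 76.3% of all regions had peaks in 1 or 2 libraries, and both forms of 1 factor held 84.3% of those with exactly 2. Among the 23 regions of the window, 13 had peaks in exactly 2 libraries, and 6 of these were held by both Nr5a2 libraries, 4 by both Nanog libraries and 2 by both Oct4 libraries. An intronic region 21.7 kb downstream of the start (chr8:106624531-106625432) had peaks in native Oct4, with a height of 40 tags, and in Oct4BiD, with 45 tags, and in no other library. Another intronic region 8.95 kb downstream (chr8:106611652-106613091) had peaks only in native Nr5a2, with 56 tags, and Nr5a2BiD, with 51 tags. A region 21.9 kb upstream of the start in intergenic sequence (chr8:106580971-106582133) likewise had peaks only in the Nr5a2 libraries, with 54 and 45 tags. By score, each of these peaks ranked above most peaks of its list, between percentile 77.5 for Nr5a2BiD at the second intronic region and percentile 88.2 for native Nr5a2 at the upstream region. Sox2BiD had 5 Cdh1 regions of its own, and no region was shared by more than 5 libraries.

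Epcam encodes an adhesion molecule of epithelial cell surfaces. Its window (ENSMUSG00000045394.9, gene at chr17:87635979-87651129, plus strand) held 1 summit in native Nanog against 2 in NanogBiD, 2 in native Oct4 against 6 in Oct4BiD, 0 in native Sox2 against 4 in Sox2BiD, and 8 in native Nr5a2 against 1 in Nr5a2BiD. It was the member with the largest excess of native Nr5a2 over Nr5a2BiD. Of the 8 summits of native Nr5a2, 6 lay in regions that no other library held, and one of these was 1387 bp upstream of the Epcam start with a height of 24 tags. Upstream of Epcam, Sox2BiD had a peak 32.9 kb from the start at percentile 90.8 of its scores (chr17:87602491-87603910). A region 22.45 kb upstream of the start (chr17:87612090-87614704) was held by NanogBiD, Oct4BiD and Sox2BiD and by no native library. Its heights were 45 tags in Sox2BiD, 31 in Oct4BiD and 10 in NanogBiD, the last at percentile 4.99 of scores and so near the floor of its list.

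Ocln encodes occludin, a membrane protein of the tight junction. Its window (ENSMUSG00000021638.12, gene at chr13:100496507-100552718, minus strand) held 3 summits in native Nanog against 4 in NanogBiD, 1 in each Oct4 library, 4 in native Sox2 against 8 in Sox2BiD, and 10 in native Nr5a2 against 6 in Nr5a2BiD. The Oct4 libraries had the fewest and native Nr5a2 the most. The Ocln promoter had a summit in both Nanog and both Nr5a2 libraries, 588 bp upstream of the start with 11 tags in native Nanog, 599 bp upstream with 13 tags in NanogBiD, 282 bp upstream with 28 tags in native Nr5a2 and 327 bp upstream with 13 tags in Nr5a2BiD. These were modest peaks, from percentile 13.2 of scores in native Nanog to percentile 65.2 in native Nr5a2. The strongest Ocln peaks of the Nr5a2 libraries lay instead in an intron, 35.7 kb downstream of the start (chr13:100516386-100517473). This region had 57 tags in native Nr5a2 against 61 in Nr5a2BiD, 34 in Sox2BiD and 13 in native Sox2, and 17 in native Nanog against 14 in NanogBiD, with no peak in the Oct4 libraries. Both Sox2 libraries shared an intergenic region 41.7 kb upstream (chr13:100594039-100595007), with 32 tags in native Sox2 against 53 in Sox2BiD, the latter at percentile 97.6 of scores. The start nearest to it is that of Marveld2, another tight junction gene.

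Claudins are the strand-forming proteins of tight junctions, and Cldn3 and Cldn4 are neighbours whose starts lie 39.28 kb apart. The Cldn3 window (ENSMUSG00000070473.4, gene at chr5:134986214-134987472, plus strand) held 8 summits in native Nanog against 10 in NanogBiD, 3 in native Oct4 against 8 in Oct4BiD, 2 in native Sox2 against 9 in Sox2BiD, and 13 in native Nr5a2 against 11 in Nr5a2BiD. The Cldn4 window (ENSMUSG00000047501.3, gene at chr5:134945119-134946934, minus strand) held 6 and 8, 1 and 8, 1 and 12, and 12 and 8 in the same order. Over the 8 libraries 36 summits lay in the part shared by the 2 windows and were counted for both genes. At Cldn3, 4 promoter summits came from 3 libraries, between 300 bp upstream in NanogBiD, with 23 tags, and 1991 bp upstream in Sox2BiD, with 15 tags. Cldn4 had a single one, 1883 bp downstream of its start in native Nr5a2, with 28 tags. The Nanog libraries shared a region 3.75 kb downstream of the Cldn3 start (chr5:134989381-134990547) with 39 tags in native Nanog against 46 in NanogBiD, which no other factor held. Within its list the height was at percentile 92.5 in both libraries, and the score was at percentile 93.6 in native Nanog and 85.5 in NanogBiD. A region between the genes, 12.4 kb upstream of Cldn4 (chr5:134958811-134959964), had 51 tags in native Nr5a2, 47 in Nr5a2BiD, 36 in Sox2BiD, 17 in native Sox2 and 12 in native Nanog.

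Cldn7 encodes a further claudin of epithelial junctions, and it lies in a dense gene neighbourhood. Its window (ENSMUSG00000018569.12, gene at chr11:69964779-69967885, plus strand) held 7 summits in native Nanog against 8 in NanogBiD, 6 in native Oct4 against 9 in Oct4BiD, 2 in native Sox2 against 15 in Sox2BiD, and 15 in native Nr5a2 against 10 in Nr5a2BiD. Starts of 10 other genes lie in the window, and 56 of its 72 summits were within 2 kb of one of those. These counts are thus largely counts of the promoters of Eif5a, Elp5, Gabarap, Phf23, Dvl2 and other neighbours. Cldn7 itself had peaks only in the Nr5a2 libraries, in a region inside the gene (chr11:69965480-69967604). In native Nr5a2 the summit lay 1770 bp downstream of the first start and 369 bp upstream of a later annotated start of the gene, with 65 tags and a score of 682.2. In Nr5a2BiD it lay 1803 bp downstream, with 33 tags and a score of 418.2. The native peak was the highest-scoring peak of native Nr5a2 in any member window, at percentile 98.5 of its list.

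Krt8 and Krt18 encode the partner keratins of simple epithelia, and their starts lie 23.698 kb apart. The Krt8 window (ENSMUSG00000049382.10, gene at chr15:101996698-102004482, minus strand) held 6 summits in native Nanog against 8 in NanogBiD, 4 in native Oct4 against 6 in Oct4BiD, 3 in native Sox2 against 8 in Sox2BiD, and 8 in native Nr5a2 against 6 in Nr5a2BiD. The Krt18 window (ENSMUSG00000023043.7, gene at chr15:102028180-102032027, plus strand) held 6 and 8, 5 and 6, 5 and 9, and 6 and 5 in that order, and 36 summits over the 8 libraries were common to both windows. Krt18 had no promoter summit in any library. At Krt8 a summit lay 1197 bp downstream of the start in native Nr5a2, with 38 tags at percentile 92.9 of scores, 1256 bp downstream in Nr5a2BiD, with 15 tags, and 881 bp upstream in Sox2BiD, with 12 tags. An intergenic region 20.1 kb downstream of Krt8 (chr15:101983622-101985223) had 87 tags and a score of 890.9 in Sox2BiD, the highest score of any member peak in any library. The same region had 35 tags in native Sox2, 18 in native Nanog, 24 in NanogBiD, 32 in Oct4BiD, 32 in native Nr5a2 and 25 in Nr5a2BiD, with no peak in native Oct4. A region 27.7 kb downstream of Krt8 (chr15:101974820-101978730) had 74 tags in native Nr5a2 and 64 in Nr5a2BiD, against 14 in native Nanog, 17 in NanogBiD and 13 in Sox2BiD. A region 16.6 kb downstream of Krt18 (chr15:102044264-102046297) had 44 tags in native Oct4 and 53 in Oct4BiD, against 21 in native Nanog, 16 in NanogBiD, 12 in native Nr5a2 and 22 in Nr5a2BiD, with no peak in the Sox2 libraries. A further region, 32.5 kb downstream of Krt18 (chr15:102059973-102061733), was held by the Sox2 libraries alone, with 27 tags in native Sox2 against 68 in Sox2BiD. By height, the highest keratin peak of both Oct4 libraries was thus in the third of these regions, that of both Nr5a2 libraries in the second and that of both Sox2 libraries in the first.

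Grhl2 encodes a grainyhead transcription factor that activates Cdh1 and claudin genes in epithelia. Its window (ENSMUSG00000022286.16, gene at chr15:37233036-37363569, plus strand) was the longest, at 180.534 kb, and held no start of another protein-coding gene. It held 8 summits in each Nanog library, 3 in native Oct4 against 9 in Oct4BiD, 5 in native Sox2 against 10 in Sox2BiD, and 9 in native Nr5a2 against 7 in Nr5a2BiD. Promoter summits were present in 4 libraries, 488 bp upstream in native Nanog with 14 tags, 1370 bp upstream in NanogBiD with 25 tags, 749 bp upstream in Sox2BiD with 18 tags and 1272 bp downstream in native Nr5a2 with 15 tags. None of these exceeded percentile 52.8 of scores. Intergenic sequence 30.9 kb upstream (chr15:37199905-37202795) held the only distal region with a peak in all 8 libraries, with 28 tags in native Nanog, 25 in NanogBiD, 37 in native Oct4, 41 in Oct4BiD, 28 in native Sox2, 33 in Sox2BiD, 29 in native Nr5a2 and 41 in Nr5a2BiD. Far inside the gene, 85.0 kb downstream of the first start and 366 bp upstream of a later annotated start, a region (chr15:37317489-37319257) had 46 tags in native Sox2, 55 in Sox2BiD and 22 in Oct4BiD. It held the highest-scoring member peak of native Sox2. An intronic region 35.3 kb downstream (chr15:37267718-37269580) belonged to the Nr5a2 libraries alone, with 50 tags for native Nr5a2 and 53 for Nr5a2BiD.

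Esrp1 encodes an epithelial splicing regulator. It had the fewest summits of the members. Its window (ENSMUSG00000040728.15, gene at chr4:11331933-11386783, minus strand) held 1 summit in native Nanog, NanogBiD and native Oct4, 3 in Oct4BiD, 0 in native Sox2, and 2 in each of Sox2BiD, native Nr5a2 and Nr5a2BiD. No region was shared between factors. The Nanog libraries shared an intronic region 20.6 kb downstream (chr4:11365575-11366689) with 24 tags in native Nanog against 41 in NanogBiD, the latter at percentile 93.3 of scores. The Nr5a2 libraries shared an intronic region 43.7 kb downstream (chr4:11342539-11343943), with 39 tags in native Nr5a2 against 17 in Nr5a2BiD, and an intergenic one 36.9 kb upstream (chr4:11423046-11424153), with 31 and 39 tags. Both intronic regions lie within 2 kb of later annotated starts of Esrp1, and the first start had no summit within 2 kb in any library.

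**Figure D2:**
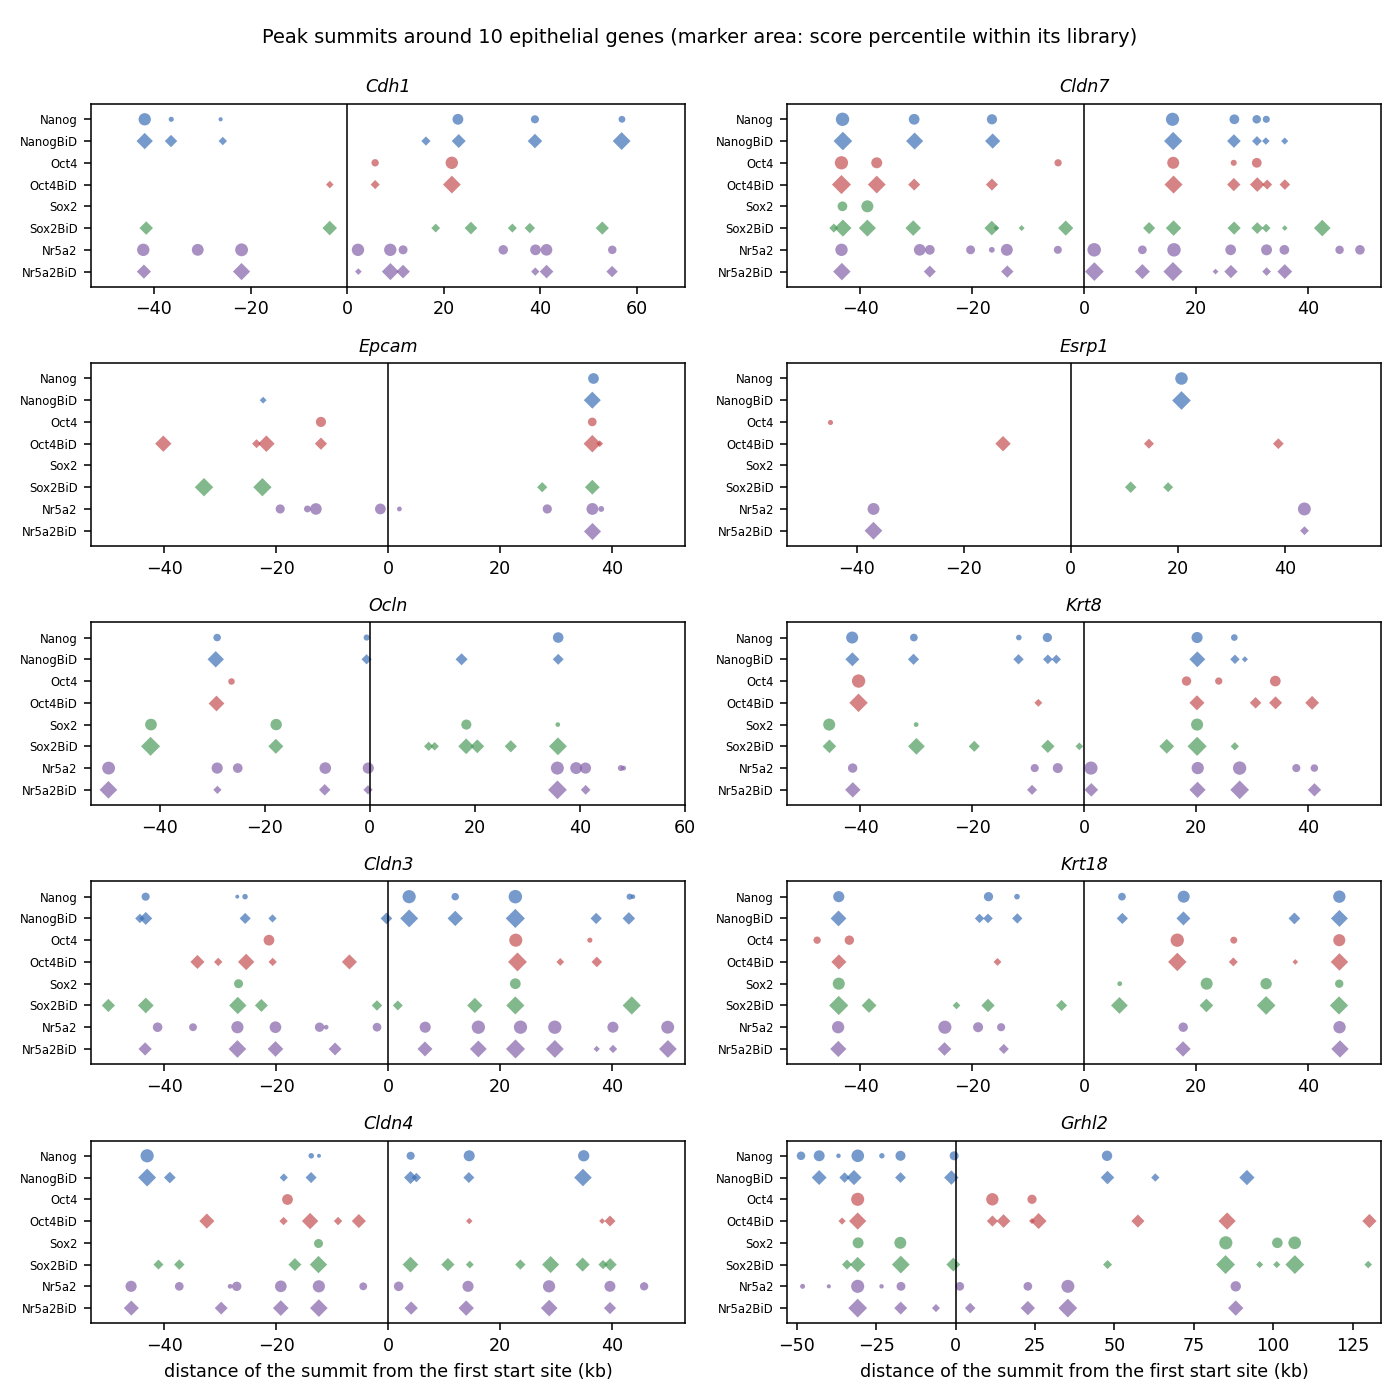
Position of every peak summit in the 10 windows, as distance in kb from the gene's first start site (x axis, positive in the direction of transcription), by library (rows); circles are native and diamonds BiD libraries, colours are factors, and marker area grows with the percentile of the peak's score within its library. The area around 0 is sparse in most panels, and the position 30.9 kb upstream of Grhl2 is lined with markers of all 8 libraries.

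By the rule of a summit within 2 kb of the first start, a smaller share of the members than of all genes had one in all libraries except native Nr5a2. A summit within 2 kb of the first start was present for 2 of 10 members in native Nanog (45.8% of all genes) against 3 in NanogBiD (49.0%), for 0 in native Oct4 (33.5%) against 0 in Oct4BiD (50.3%), for 0 in native Sox2 (18.9%) against 3 in Sox2BiD (45.9%), and for 7 in native Nr5a2 (56.4%) against 3 in Nr5a2BiD (46.8%). Cdh1, Esrp1 and Krt18 had none in any library, which is 3 of 10 members where 29.3% of all genes had none. Epcam and Cldn4 had one in 1 library, Cldn7 in 2, Cldn3 and Krt8 in 3, and Ocln and Grhl2 in 4. No member had a summit within 2 kb of its first start in 5 or more libraries, against 40.8% of all genes. Later annotated starts do not enter these counts. At Esrp1 a summit lay within 2 kb of a later start in both Nanog libraries, Sox2BiD and both Nr5a2 libraries. At Grhl2 this was so in Oct4BiD and both Sox2 libraries. The count for native Nr5a2 rested on the distance: 6 of its 7 members had their nearest summit between 1197 and 1985 bp from the start, and within 1 kb 1 member remained, Ocln, against 48.0% of all genes. Within 1 kb the counts were 2 members in native Nanog (40.8% of all genes) against 2 in NanogBiD (43.0%), 0 in native Oct4 (30.0%) against 0 in Oct4BiD (44.4%), 0 in native Sox2 (15.5%) against 2 in Sox2BiD (38.4%), and 1 in Nr5a2BiD (41.2%). By the same 2 kb rule, 9, 8, 6, 8, 4, 7, 10 and 8 of 10 mesenchymal genes had a promoter summit in native Nanog, NanogBiD, native Oct4, Oct4BiD, native Sox2, Sox2BiD, native Nr5a2 and Nr5a2BiD. Of 32 other epithelial genes, among them junction, polarity, keratin, grainyhead and Ovol genes, 7, 11, 4, 9, 2, 14, 19 and 12 had one in that order. Their shares were below those of all genes in 7 libraries and above it in native Nr5a2, at 59.4%. With 10 genes, each member is 10 percentage points, and the lists were chosen with earlier results of these data known.

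**Figure D3:**
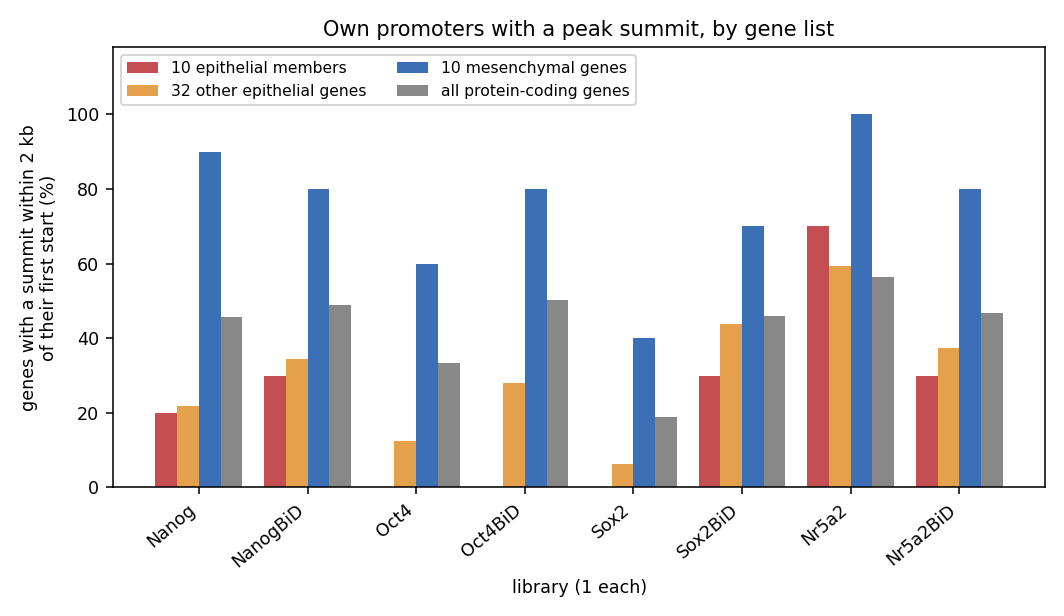
Share of genes (y axis, percent) with a peak summit within 2 kb of the first start, by library (x axis, 1 library each), for the 10 epithelial members, 32 other epithelial genes, 10 mesenchymal genes and all protein-coding genes. The members' bar is at 0 in native Oct4, Oct4BiD and native Sox2 and is above the bar of all genes only in native Nr5a2, while the mesenchymal bar is the tallest in every library.

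Promoters with more CpG than the median had peaks more often in all 8 libraries, so the members' promoters were placed on that scale. Over the 300 bases from 250 before to 50 after the first start, the ratio of observed to expected CpG had a median of 0.524 over 21938 genes. Of the members, 4 were above it (Cdh1 at 0.599, Ocln at 0.601, Krt18 at 0.644 and Grhl2 at 0.664) and 6 were below it, the lowest being Krt8 at 0.186. Among the 4 members above the median, 2 had a promoter summit in native Nanog, NanogBiD and native Nr5a2, 1 in Sox2BiD and Nr5a2BiD and 0 in native Oct4, Oct4BiD and native Sox2. Between 28.7%, in native Sox2, and 81.1%, in native Nr5a2, of all genes on that side had one. Among the 6 members below it, 5 had a promoter summit in native Nr5a2, 2 in Sox2BiD and Nr5a2BiD, 1 in NanogBiD and 0 in native Nanog, native Oct4, Oct4BiD and native Sox2. The 5 in native Nr5a2 lay between 1197 and 1985 bp from the start, outside the 300 bases measured. The share of all genes at or below the median was 31.6% in native Nr5a2 and between 9.13% and 23.2% in the other 7 libraries. Cdh1 and Krt18 thus lay above the median without a summit within 2 kb of the first start in any library. At Cdh1 the Nr5a2 libraries had one within 2 kb of a later annotated start.

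Most promoter peaks in the windows belonged to neighbours. Of the 394 summits in the windows over all libraries, 133 (33.8%) lay within 2 kb of any annotated protein-coding start, and 101 of these (75.9%) were at starts of genes other than the members. The share at any start was 32.6% in native Nanog, with an exact 95% binomial interval of 19.1 to 48.5%, and the other libraries lay between 27.8% in native Sox2 and 35.0% in native Nr5a2. Among all peaks the shares were lower, from 10.7% in native Sox2 to 18.8% in Nr5a2BiD. The interval held the share of all peaks in native Oct4 (15.6 to 55.3%, where all gave 16.9%) and in native Sox2 (9.69 to 53.5%). In the other libraries the share of all peaks lay below it. The windows are placed around gene starts and all peaks are not, so this is not a like comparison. A summit's nearest start was that of a member for 201 of the 394 (51.0%). Grhl2 and Esrp1 are the nearest gene for every summit in their windows, while this holds for 5 of 72 in the window of Cldn7 and 12 of 64 in that of Cldn3.

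The comparison of BiD and native forms asks whether the BiD fusion goes with a different set of sites at these genes. Recruitment of BAF was not measured in these libraries. More summits were found in the BiD library for Nanog, Oct4 and Sox2 and fewer for Nr5a2. With NanogBiD, 8 members had more summits than with native Nanog, 0 had fewer and 2 had the same number, while 44.6% of all genes had more and 19.7% fewer. With Oct4BiD 9 members had more and 0 fewer, against 74.6% and 5.67% of all genes. With Sox2BiD all 10 members had more, against 83.6% of genes with more and 1.86% with fewer. With Nr5a2BiD 0 members had more and 9 had fewer, against 4.75% and 74.0% of all genes. For Oct4, Sox2 and Nr5a2 the members' direction was that of most genes, while for Nanog fewer genes than members had more summits. With a score of at least 100, 2 members had more for Nanog, 2 had fewer and 6 were equal. At that score 9 had more for Oct4 and 8 for Sox2, with 0 fewer, and for Nr5a2 1 had more and 8 fewer. Summits in the overlapping windows of Cldn3 and Cldn4, and of Krt8 and Krt18, count for both genes. Without a score limit, the log2 ratio of distinct summits, BiD over native, was 0.27 with Nanog and 1.09 with Oct4. It was 1.98 with Sox2 and -0.54 with Nr5a2. For all peaks of the lists the ratios were 0.04, 0.78, 1.05 and -0.50 in that order. The mean over the 4 factors was 0.70 ± 1.08 (SD, n = 4 factors), smaller than the spread between factors. Per 10000 peaks the ratios were 0.23, 0.31, 0.93 and -0.04, so that per peak the Nr5a2 libraries were nearly equal. When each list was reduced to its 20000 highest-scoring peaks, the members had 9 summits in native Nanog against 10 in NanogBiD, 8 in each Oct4 library, 9 in native Sox2 against 12 in Sox2BiD, and 15 in native Nr5a2 against 18 in Nr5a2BiD, so that the Nr5a2 direction turned and the Oct4 difference was absent. The part of list size in these differences was not tested.

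**Figure D4:**
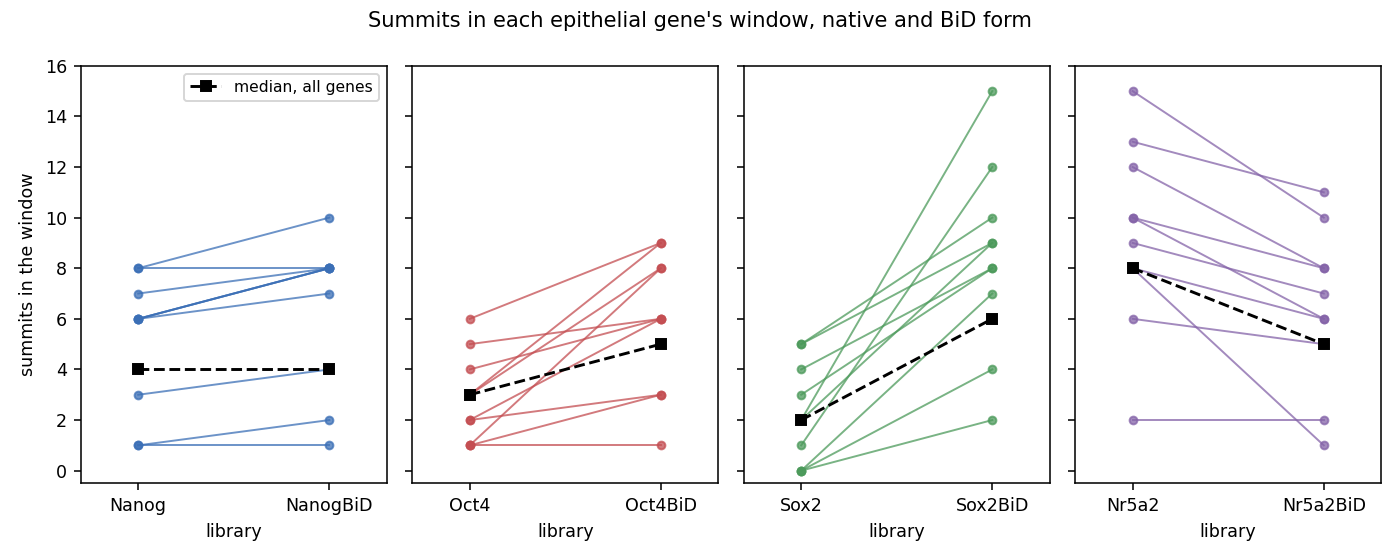
Summits in the window of each epithelial gene (y axis, number) in the native and the BiD library of each factor (x axis); each line is 1 gene and the dashed line with squares is the median over all protein-coding genes. Lines run upward or level for Nanog, Oct4 and Sox2 and downward or level for Nr5a2, as the dashed line does for Oct4, Sox2 and Nr5a2.

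The size of the BiD difference varied among the members. For Sox2, Cldn7 had 2 summits in the native list and 15 in the BiD list and Cldn4 had 1 and 12, and 2.47% and 4.11% of all genes had differences at least as large. For Oct4, Cldn4 had 1 and 8 and Grhl2 had 3 and 9, with 7.0% and 12.0% of genes at or above these differences. For Nr5a2, Epcam had 8 and 1, and 6.50% of genes had a difference as low or lower. At Cdh1 the differences, BiD minus native, were 1 summit for Nanog and for Oct4, 7 for Sox2 and -2 for Nr5a2. At Esrp1 there was no difference for Nanog or Nr5a2. Place by place, 37 member regions were held by both Nanog libraries, 4 by the native and 13 by the BiD library alone. Both Oct4 libraries held 18, native Oct4 6 and Oct4BiD 31. Both Sox2 libraries held 18, which were all the regions of native Sox2, and Sox2BiD held 50 more. Both Nr5a2 libraries held 49, native Nr5a2 31 and Nr5a2BiD 5. The BiD libraries thus covered 90.2% of the native member regions of Nanog, 75.0% of those of Oct4, 100% of those of Sox2 and 61.25% of those of Nr5a2. Over all regions of the genome the shares were 72.9%, 73.4%, 86.4% and 60.9% in that order.

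Most regions near the members had a peak in few libraries, at a share close to that of all regions. The peaks formed 173 regions, of 306466 over the genome. Of these 75 had a peak in 1 library, 59 in 2, 12 in 3, 6 in 4, 8 in 5, 4 in 6, 5 in 7 and 4 in all 8. The share in 1 or 2 libraries was 77.5%, against 76.3% of all regions. Of the 59 regions with exactly 2 libraries, 47 (79.7%) were held by the native and BiD forms of the same factor, 22 of them by Nr5a2, 9 by Nanog, 8 by Oct4 and 8 by Sox2, and the share over the genome was 84.3%. Regions held by a single library numbered 1 of 41 in native Nanog, 6 of 50 in NanogBiD, 5 of 24 in native Oct4, 12 of 49 in Oct4BiD, 0 of 18 in native Sox2, 25 of 68 in Sox2BiD, 22 of 80 in native Nr5a2 and 4 of 54 in Nr5a2BiD. As shares these were 2.44%, 12%, 20.8%, 24.5%, 0%, 36.8%, 27.5% and 7.41%, and over all regions of the same libraries they were 11.3%, 15.1%, 16.6%, 35.1%, 9.45%, 32.9%, 28.8% and 7.39%.

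Regions with peaks in 6 or more libraries numbered 13 (7.51%, against 5.70% of all regions), and 0 of them lay at the promoter of a member. There were 8 at promoters of neighbours, and the 7 described here were Eif5a, Elp5, Gabarap and Phf23 around Cldn7, Eif4b near Krt18, Mettl27 near Cldn4 and Abhd11 near Cldn3. Eif5a, Eif4b and Abhd11 had peaks in all 8 libraries (chr11:69918080-69922751, chr15:102072997-102074847 and chr5:135007508-135010983). Elp5, Gabarap and Phf23 had peaks in 7 libraries (chr11:69979385-69981901, chr11:69990431-69992035 and chr11:69995140-69997888), native Sox2 being the one without. At Mettl27 (chr5:134932093-134933717) 6 libraries had a peak, and native Oct4 and native Sox2 did not. The other 5 regions were distal: the Ocln intron, the keratin regions 20.1 kb downstream of Krt8 and 16.6 kb downstream of Krt18, and the regions upstream of Grhl2 at 30.9 kb and at 17.3 kb (chr15:37215137-37216436). The last had 30 tags in both Sox2 libraries, 16 and 11 in the Nanog libraries and 16 and 15 in the Nr5a2 libraries. The ranks at the distal regions varied between libraries, also between forms of a factor. The region near Krt18 ranked at score percentile 95.4 in native Oct4 and 91.7 in Oct4BiD, and at 43.5 in native Nr5a2 and 61.1 in Nr5a2BiD. The Ocln intron ranked at score percentile 3.80 in native Sox2 and 84.7 in Sox2BiD, at 57.1 in native Nanog and 26.2 in NanogBiD, and at 90.6 in native Nr5a2 and 94.7 in Nr5a2BiD.

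**Figure D5:**
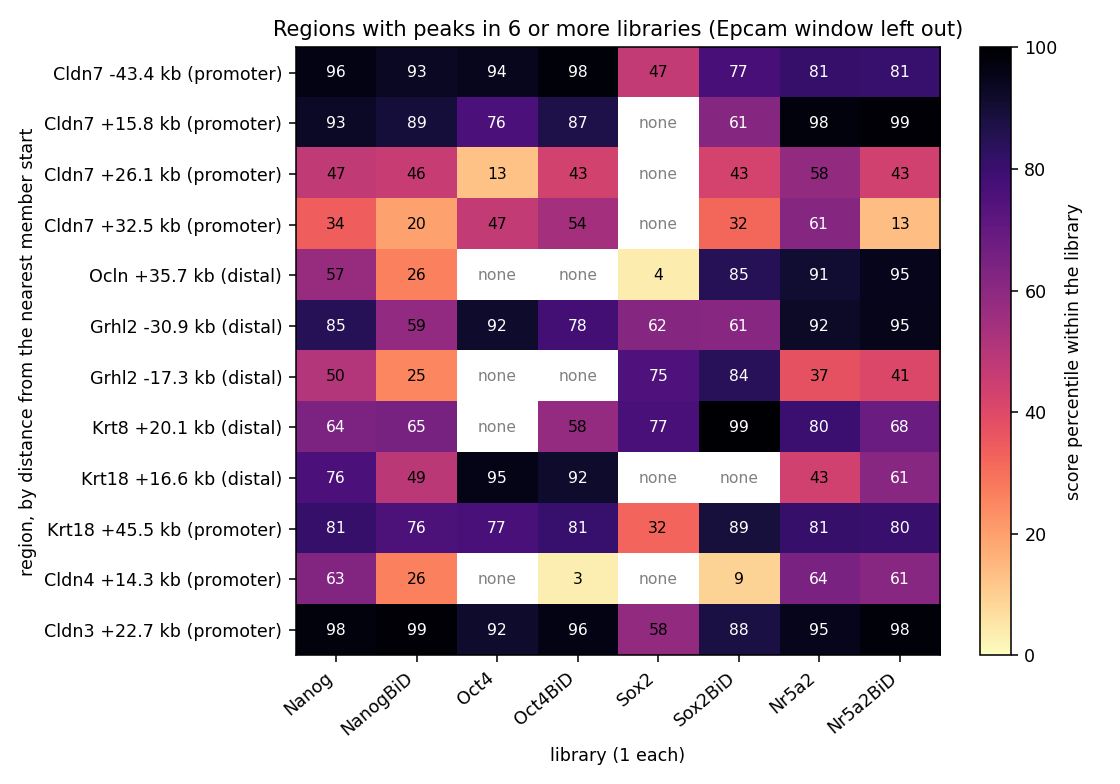
Percentile of the peak score within its library (colour and number) for 12 of the 13 regions with peaks in 6 or more libraries (rows, named by the nearest member and the distance from its first start, and marked as lying at any protein-coding promoter or distal), by library (columns, 1 each); "none" marks no peak. The Abhd11 promoter 22.7 kb from Cldn3 ranks at percentile 87.6 or higher in 7 libraries and at 58.4 in native Sox2, and the Ocln intron ranges from 3.80 in native Sox2 to 94.7 in Nr5a2BiD.

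The highest-scoring member peak of each library fell at promoters of neighbours in 4 of 8 cases. Native Nanog and NanogBiD both had theirs at the Abhd11 promoter in the window of Cldn3, with scores of 545.22 and 736.15. Oct4BiD had its own at the Eif5a promoter in the window of Cldn7, at 688.34, and Nr5a2BiD at the Elp5 promoter in the same window, at 621.02. The other 4 were the region near Krt18 for native Oct4 (402.29), the late Grhl2 intron for native Sox2 (461.59), the region downstream of Krt8 for Sox2BiD (890.9) and the Cldn7 introns for native Nr5a2 (682.2).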

How the data were processed

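Peak and summit lists of 8 Flag CUT&Tag libraries were used, 1 per group. The authors used Trim Galore 0.6.4 for trimming, Bowtie2 2.4.5 for alignment to mm10, SAMtools 1.16.1 for removal of repetitive, poorly mapped and mitochondrial reads, and MACS 1.4.2 for peaks. The deposited score is MACS's minus 10 log10 of p, with a lowest value of 50 in each list (p of 1e-05). The summit signal deposited by the authors is a height in whole tags, not scaled to depth, and heights and scores were therefore ranked within their list. The study's methods mention merging of replicates before peak calling, while its reporting summary states a single experiment. Its reporting summary also lists read totals, which were not used here.

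Summits were placed with GENCODE M21 on GRCm38, the mm10 assembly, in Python 3.11.15 with NumPy 2.4.6, pandas 2.3.3, SciPy 1.17.1 and matplotlib 3.10.9, and the placing functions were tested on simulated data. Windows reached 50 kb from the first start and covered the gene body. A promoter summit lay within 2 kb. Peaks were merged into regions where they overlapped by at least 1 bp. Named regions were those with peaks in 6 or more libraries, the highest-scoring member peak of each library and those at members' promoters; the others named were chosen after their values were seen. With 1 library per group no test was made, and counts were set beside those of all 21938 genes. Binomial intervals are exact, at 95%, and cover counting error only. Alternatives were other window and promoter distances, stricter peak lists and other rules for placing peaks. The members and lists were chosen with earlier results of these data known. One neighbouring promoter and one summit sequence are not reported here.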

Additional observations from a re-analysis of the deposited data

Results flagged for a closer look

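The direction of the BiD difference at the epithelial genes was not the same in all factors, and this was the one result that drew a closer look. The log2 ratio of distinct summits in the member windows, BiD over native, was 0.27 for Nanog, 1.09 for Oct4 and 1.98 for Sox2, and -0.54 for Nr5a2. Each value compares 1 library with 1 library, so the difference between factors was not tested. With all peaks, no member had fewer summits with BiD for Nanog, Oct4 or Sox2, and no member had more for Nr5a2. The total numbers of peaks had log2 ratios of 0.04, 0.78, 1.05 and -0.50 in the same order, of the same sign as at the members and smaller in size. Per 10000 peaks the ratios at the members were 0.23, 0.31, 0.93 and -0.04. Among the 20000 highest-scoring peaks of each list the ratios were 0.15, 0, 0.42 and 0.26, so that the Nr5a2 direction turned, with 4 members higher and 1 lower for Nr5a2 and 3 higher and 3 lower for Nanog. The part of list size in the result was not tested.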

How the results depend on the processing

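Of 169 values that answer a comparison under an alternative, 96 stayed close to the reported value and 73 did not, where close means within 1.5 times for a count, inside the exact 95% interval for a share and within 1 SD for the mean ratio; with 1 library per group there was no significance to lose. Libraries are given in the order native Nanog, NanogBiD, native Oct4, Oct4BiD, native Sox2, Sox2BiD, native Nr5a2, Nr5a2BiD. The distinct summits in the member windows numbered 21, 28, 10, 24, 9, 42, 45 and 31 with a distance of 20 kb, and 66, 79, 44, 86, 29, 112, 145 and 97 with 100 kb. They numbered 9, 10, 8, 8, 9, 12, 15 and 18 among the 20000 highest-scoring peaks of each list. Counting only summits whose nearest start was that of a member gave 21, 26, 13, 28, 11, 37, 40 and 25. With a score of at least 100 the numbers were 23, 27, 12, 26, 15, 44, 55 and 35.

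Members with a promoter summit numbered 0 in native Nanog, NanogBiD and Sox2BiD, 2 in native Nr5a2 and 1 in Nr5a2BiD among the 20000 highest-scoring peaks. With a score of at least 100 they numbered 1 in native Nanog, NanogBiD and Sox2BiD. Within 1 kb they numbered 1 in native Nr5a2 and in Nr5a2BiD. Within 500 bp they numbered 1 in native Nanog, NanogBiD, native Nr5a2 and Nr5a2BiD and 0 in Sox2BiD. Within 5 kb they numbered 4 in native Nanog, 5 in NanogBiD, 1 in native Oct4 and Oct4BiD, 7 in Sox2BiD and 6 in Nr5a2BiD. From any annotated transcript start they numbered 1 in Oct4BiD and native Sox2 and 5 in Nr5a2BiD.

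Regions with peaks in 6 or more libraries numbered 5 with 20 kb, 23 with 100 kb and 3 among the 20000 highest-scoring peaks. The share of summits at any promoter was 55.6% in native Nanog, 70% in NanogBiD and 62.5% in Oct4BiD among those peaks. With a promoter distance of 500 bp it was 18.3% in Sox2BiD, 16.25% in native Nr5a2 and 21.8% in Nr5a2BiD, with 1 kb it was 20% in native Nr5a2, and with 5 kb it was 49.3% in Sox2BiD. The mean log2 ratio of BiD over native stayed above 0 under every alternative run, and between 0.27 and 1.11 with each factor left out in turn. No paired analysis was possible because each group has 1 library, so that no replicates could be paired; the mean over the 4 native and BiD pairs is given as a description without a test.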

Other observations

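Among the 32 other epithelial genes, 9 had no promoter summit in any library, among them Tjp1, Ovol2, Krt7 and Rab25, and 5 had one in 5 or more libraries, where 29.3% and 40.8% of all genes did. Tjp3 and Jup had promoter summits in all 8. Tjp1, a tight junction scaffold, had the most window summits of this list in Sox2BiD, with 26, and 15 in native Sox2, without a promoter summit. Among the mesenchymal genes, Zeb2, a repressor of E-cadherin, stood apart from the rest of its list with a promoter summit in 1 library, and Cdh2, a long gene that encodes N-cadherin, had between 12 and 25 window summits.

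These values are limited in several ways. Each group is 1 library without replicate error. No control library was analysed here, so open chromatin and binding cannot be told apart. Peaks of neighbouring genes fall in the windows, most of all around Cldn7. A summit within 50 kb does not assign the peak to the gene. Which other factors the cells received is not given.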
